A study of Mus musculus with 14 samples.

Results

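Genes that make, cut or bind hyaluronan were followed in mouse epidermal cells with and without the histone methyltransferase G9a. They were the hyaluronan synthase genes Has1, Has2 and Has3, the precursor enzyme gene Ugdh, the hyaluronidase genes Hyal1 and Hyal2, and the receptor gene Cd44. All 7 were measured, among 17097 genes with a single symbol. They were matched by gene symbol to 11 probe sets of 45141, and probe sets were chosen by their mean signal over the 14 arrays, keeping the highest for each gene. Those means, given only as a description, were 11.23 for Cd44, 8.39 for Hyal1, 7.68 for Ugdh, 7.37 for Has1, 7.14 for Hyal2, 5.31 for Has3 and 5.21 for Has2, where the Has2 probe set left aside had 5.18. The genes themselves were picked with earlier results of these data known, so the tests below are not independent support for their selection.

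The arrays held RNA of epidermal cells from mice aged 15 weeks with unchallenged skin. The groups were bulge cells of G9a conditional knockout mice (bulge cKO, n = 4), bulge cells of G9a wild-type mice (bulge WT, n = 3), interfollicular epidermis cells of knockout mice (IFE cKO, n = 4) and the same cells of wild-type mice (IFE WT, n = 3). The bulge is the niche of the follicle's stem cells, and the interfollicular epidermis is the layered skin between follicles. The sources used here do not name the driver that deletes G9a, the sex of the mice or how the cells were isolated. Nor do they say whether replicates were separate animals, so the p-values measure only the spread between these samples.

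Hyaluronan is a long sugar polymer of the space between cells. Synthases in the plasma membrane build it from UDP-glucuronate and UDP-N-acetylglucosamine, hyaluronidases cut it, and Cd44 binds it at the cell surface. In the epidermis it fills the narrow spaces between keratinocytes, and in cultured keratinocytes growth factors of the EGF family are known to induce its synthesis.

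Signals are log2 values, so a difference of 1 is a doubling, and the medians of all probe sets lay between 5.76 and 5.84 on the 14 arrays. A signal below that median is called dim here, and whether a dim signal lies above background was not tested. G9a is encoded by Ehmt2. One of its probe sets read 5.85 to 6.09 on cKO arrays and 9.51 to 9.78 on WT arrays, in the direction of every label. The other read 7.84 to 8.03 on cKO arrays and 7.84 to 8.05 on WT arrays, and whether it lies outside the deleted part was not tested. Bulge markers were higher on bulge arrays, with a mean over the 8 markers of 9.84 to 10.76 in bulge cKO and 10.86 to 11.01 in bulge WT, against 7.28 to 7.94 in IFE cKO and 7.32 to 7.34 in IFE WT. Bulge cKO replicates 2 and 3 stood apart. On the first principal component, which held 71% of the variance, they lay at -12.8 and -19.5, bulge cKO replicates 1 and 4 at -53.3 and -55.9, and the bulge WT arrays between -73.3 and -63.6. The mean of 10 differentiation markers on bulge cKO replicates 1 to 4 was 7.68, 9.37, 9.14 and 8.57, against 7.32 to 7.66 in bulge WT. The mean of 6 T cell markers was 5.52 to 6.28 in bulge cKO, 5.20 to 5.45 in bulge WT, 5.55 to 6.15 in IFE cKO and 5.26 to 5.52 in IFE WT. Over all arrays the mean of 7 basal markers was 11.37 to 11.67, of 4 sebaceous markers 6.08 to 6.87, of 5 endothelial markers 5.01 to 5.38 and of 5 melanocyte markers 5.62 to 6.08. IFE cKO replicates 2 and 3 had the stem cell marker Cd34 at 6.65 and 6.53, where the other IFE cKO arrays read 5.1 and 5.16 and the IFE WT arrays 5 to 5.12.

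Of the 7 genes 1 passed the test against WT in each compartment, where 3.84% of all genes passed in bulge and 0.497% in IFE. Has2 was lower in bulge cKO than in bulge WT, and Has3 was lower in IFE cKO than in IFE WT. For neither gene did the test of the difference between the knockout effects in bulge and IFE pass.

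**Figure D1:**
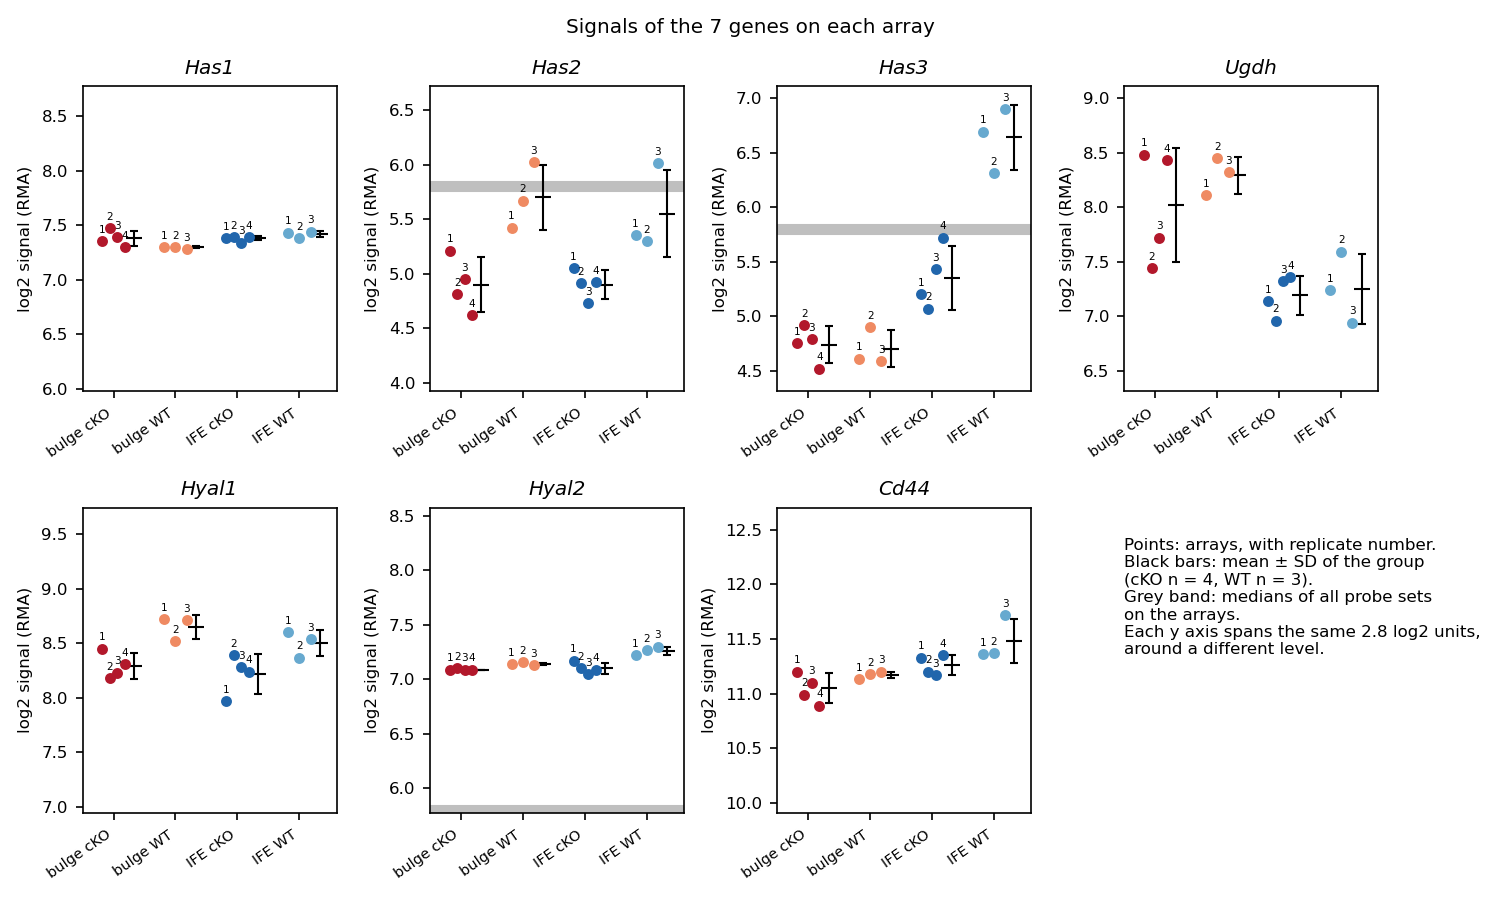
Log2 signal of the chosen probe set of each gene on every array, with the 4 groups on the x axis, replicate numbers beside the points and black bars for the mean ± SD. Has3 stands at 6.31 to 6.90 on the IFE WT arrays and no higher than 5.72 on any other array, and Has2 is lower on all cKO arrays than on any WT array.

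Has2 encodes the synthase that mouse embryos need for heart development and that is induced by growth factors in keratinocytes. Its signal was 5.21, 4.81, 4.95 and 4.62 in bulge cKO, against 5.42, 5.67 and 6.02 in bulge WT. All 4 bulge cKO arrays lay below all 3 bulge WT arrays, and in bulge WT only replicate 3 reached the array median. The group means were 4.90 ± 0.25 (SD, n = 4) in bulge cKO and 5.70 ± 0.30 (SD, n = 3) in bulge WT. Has2 fell by 0.80 on the log2 scale (95% interval -1.22 to -0.39, SE 0.19, limma adjusted p = 0.0405). The signals were dim, and the part of background in the size of the fall was not tested. In RNA of many cells, fewer cells that express a gene and less RNA per cell cannot be told apart.

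In interfollicular cells Has2 read 5.05, 4.91, 4.73 and 4.92 in cKO, against 5.35, 5.30 and 6.01 in WT. Here too the groups did not overlap, and IFE WT replicate 3 was the highest array. The difference was -0.65 (95% interval -1.06 to -0.23, limma adjusted p = 0.207), which did not pass. The difference between the knockout effects in bulge and IFE was -0.16 (95% interval -0.74 to 0.43, limma adjusted p = 0.807), so Has2 was not shown to respond differently in the compartments. In order of level, bulge WT (5.70) and IFE WT (5.55) came first and did not differ beyond their spread, and bulge cKO and IFE cKO followed at 4.90 each.

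A further probe set of Has2, not used for the gene test, gave 4.94, 4.99, 4.91 and 4.78 in bulge cKO, against 5.33, 5.69 and 5.66 in bulge WT. All 7 arrays were dim and the genotypes did not overlap. With every probe set tested by itself, its difference was -0.66 (SE 0.10, limma adjusted p = 0.00436), and in IFE it was -0.34 (SE 0.10, limma adjusted p = 0.195). Its IFE values were 5.11, 4.90, 5.0 and 5.13 in cKO, against 5.43, 5.22 and 5.47 in WT, again without overlap.

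The call of Has2 in bulge rested on several arrays. Without bulge cKO replicates 2 and 3 the difference was -0.78 (limma adjusted p = 0.279). Leaving out bulge cKO replicate 2 or 3 or any of bulge WT replicates 1 to 3 gave adjusted p values of 0.109, 0.101, 0.0717, 0.13 and 0.0895 with differences between -0.95 and -0.65. The mean of 6 fibroblast markers, which mark a cell type that also makes hyaluronan, was 5.16 to 5.91 in bulge cKO, 4.98 to 5.22 in bulge WT, 5.09 to 5.54 in IFE cKO and 4.82 to 5.14 in IFE WT. Of these 6 markers 3 were dim on every array, among them Pdgfra at 4.08 to 4.20. In bulge the genotypes did not overlap on the means of the bulge, differentiation and T cell markers given above. The mean of 7 basal markers, at 11.37 to 11.53 in bulge cKO and 11.54 to 11.67 in bulge WT, did not overlap either. The same was true of 7 Langerhans cell markers, at 6.46 to 7.22 in bulge cKO and 5.88 to 6.12 in bulge WT. The part of other cell types in the Has2 result was not tested.

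Has3 encodes a synthase that epidermal keratinocytes express beside Has2. Its signal was 5.20, 5.07, 5.43 and 5.72 in IFE cKO, against 6.69, 6.31 and 6.90 in IFE WT. All IFE cKO arrays were dim and lay below all IFE WT arrays. The means were 5.35 ± 0.29 (SD, n = 4) in IFE cKO and 6.64 ± 0.30 (SD, n = 3) in IFE WT, and Has3 fell by 1.28 on the log2 scale (95% interval -1.65 to -0.92, SE 0.17, limma adjusted p = 0.00316). Leaving out any single array of either group kept the call, with differences from -1.44 to -1.15. Without replicates 2 and 3 of the cKO groups the difference was -1.18 (limma adjusted p = 0.103), with cKO arrays of 5.20 and 5.72 left in IFE. Some marker means differed between the IFE genotypes without overlap. The mean of the 4 sebaceous markers was 6.48 to 6.78 in IFE cKO and 6.23 to 6.47 in IFE WT. That of the T cell markers was 5.55 to 6.15 in IFE cKO and 5.26 to 5.52 in IFE WT. The mean of the 7 basal markers was lower in cKO, at 11.39 to 11.50 in IFE cKO and 11.52 to 11.61 in IFE WT. The mean of the differentiation markers, at 9.49 to 9.60 in IFE cKO and 9.05 to 9.61 in IFE WT, overlapped. The part of these cell types in the Has3 result was not tested.

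In bulge cells Has3 was dim on every array, at 4.75, 4.92, 4.79 and 4.52 in cKO, against 4.61, 4.90 and 4.59 in WT. These groups overlapped, and the difference was 0.04 (95% interval -0.32 to 0.41, limma adjusted p = 0.895). The knockout effect in bulge minus that in IFE was 1.32 (95% interval 0.81 to 1.84, unadjusted p = 0.000115, limma adjusted p = 0.0676), which did not pass over all genes. Has3 therefore ranked with IFE WT highest, IFE cKO next and both bulge groups last, the last pair not differing beyond its spread.

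Has1 encodes the remaining synthase. It read 7.35, 7.47, 7.39 and 7.30 in bulge cKO, against 7.30, 7.30 and 7.28 in bulge WT, and 7.38, 7.39, 7.34 and 7.39 in IFE cKO, against 7.43, 7.38 and 7.44 in IFE WT. All 14 arrays lay between 7.28 and 7.47, none of them dim, and whether this nearly level signal lies above background was not tested. The differences between cKO and WT were 0.08 in bulge (95% interval -0.01 to 0.17, limma adjusted p = 0.23) and -0.04 in IFE (95% interval -0.13 to 0.05, limma adjusted p = 0.799).

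Ugdh encodes UDP-glucose dehydrogenase, which makes the UDP-glucuronate that synthases of hyaluronan and of other glycosaminoglycans use. It read 8.48, 7.44, 7.72 and 8.43 in bulge cKO, against 8.11, 8.45 and 8.32 in bulge WT. Bulge cKO replicates 1 and 4 lay with the WT arrays and replicates 2 and 3 below them. The difference was -0.28 (95% interval -0.80 to 0.25, limma adjusted p = 0.478), and 0.16 without replicates 2 and 3 (limma adjusted p = 0.831), so its sign rested on the arrays whose differentiation markers were highest. In IFE it read 7.14, 6.96, 7.32 and 7.36 in cKO, against 7.24, 7.59 and 6.94 in WT, a difference of -0.06 (95% interval -0.58 to 0.46, limma adjusted p = 0.967).

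Hyal1 encodes a hyaluronidase of the lysosome and Hyal2 one anchored to the cell surface. The genes are direct neighbours on chromosome 9 in the RefSeq annotation. Hyal1 read 8.45, 8.18, 8.23 and 8.31 in bulge cKO, against 8.72, 8.52 and 8.71 in bulge WT. These groups did not overlap, but the difference of -0.36 did not pass (95% interval -0.58 to -0.14, limma adjusted p = 0.0619). In IFE, Hyal1 read 7.97, 8.39, 8.28 and 8.24 in cKO, against 8.60, 8.37 and 8.54 in WT. Here cKO replicate 2 reached past WT replicate 2, and the difference was -0.28 (95% interval -0.50 to -0.07, limma adjusted p = 0.306).

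Hyal2 varied little. It read 7.09, 7.10, 7.09 and 7.09 in bulge cKO, against 7.14, 7.16 and 7.13 in bulge WT, a difference of -0.05 (95% interval -0.13 to 0.03, limma adjusted p = 0.421). In IFE it read 7.17, 7.10, 7.05 and 7.09 in cKO, against 7.22, 7.27 and 7.30 in WT. The genotypes did not overlap in either compartment, yet the IFE difference of -0.16 did not pass either (95% interval -0.24 to -0.08, limma adjusted p = 0.0979).

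Cd44 encodes the main surface receptor of hyaluronan on keratinocytes. It read 11.20, 10.99, 11.10 and 10.89 in bulge cKO, against 11.13, 11.18 and 11.20 in bulge WT, where the groups overlapped (difference -0.13, 95% interval -0.33 to 0.08, limma adjusted p = 0.412). In IFE it read 11.33, 11.20, 11.17 and 11.35 in cKO, against 11.36, 11.37 and 11.72 in WT. The IFE genotypes missed each other by 0.01, with WT replicate 3 well above the rest (difference -0.22, 95% interval -0.42 to -0.02, limma adjusted p = 0.415).

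**Figure D2:**
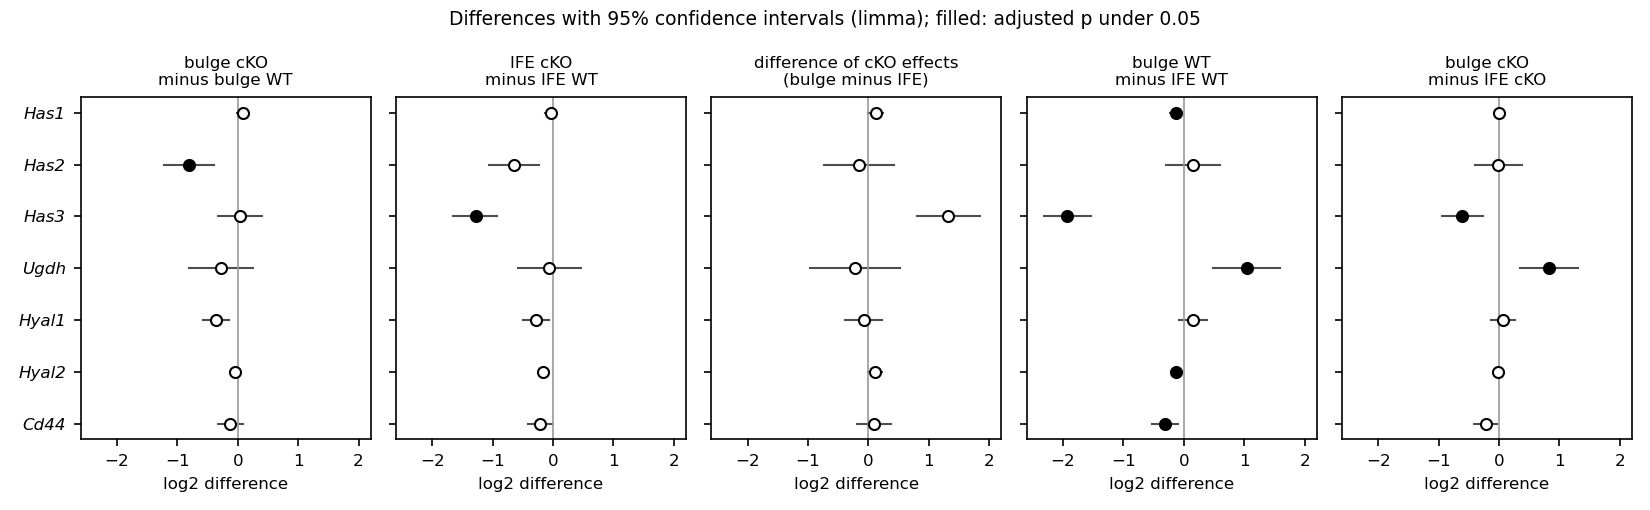
Log2 difference of each gene in the 5 comparisons, with 95% confidence intervals from limma and filled points where the adjusted p is under 0.05. The filled points against WT are Has2 in bulge (-0.80) and Has3 in IFE (-1.28), and between compartments Has3 lies lower and Ugdh higher in bulge in both genotypes.

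Counted over the 7 genes, 1 was lower and 0 were higher in bulge cKO, where 1.85% of all genes were called lower, 1.98% higher and 3.84% in either direction. Of all calls 51.7% were higher in bulge cKO, against 41.5% after median centring. In IFE cKO 1 was lower and 0 higher, where 0.175% of all genes were called lower, 0.322% higher and 0.497% in either direction. For the difference of the knockout effects 0 of 7 were called, against 0.105% of all genes, and 1 of the 7, Has3, had an unadjusted p under 0.05, near the share of all genes (14.1%). An unadjusted p under 0.05 was found for 2 of the 7 in bulge, where 25.7% of all genes had one, and for 5 of the 7 in IFE, where 11% had one. The groups did not overlap for 3 genes in bulge, all lower in cKO, where 8.05% of all genes were lower without overlap. In IFE this held for 4 genes, all lower in cKO, against 5.97% of all genes. The direction of both shares was taken from these genes, and shares in either direction were not counted. All 7 differences were below 0 in IFE (median -0.22, all genes -0.01) and 5 of 7 in bulge (median -0.13, all genes 0.01). These 2 comparisons share no arrays, but they share an estimate of the spread, and whether they share animals is not known. Since the genes were picked with results known, these counts are descriptions of the list.

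Between compartments, in cells with G9a, Has3 was lower and Ugdh higher in the bulge. Has3 differed by -1.93 between bulge WT and IFE WT (95% interval -2.32 to -1.54, SE 0.18, limma adjusted p = 1.61e-05), with bulge WT at 4.59 to 4.90 and IFE WT at 6.31 to 6.90. The bulge side is dim, so no fold is given. The mean of the differentiation markers was 7.32 to 7.66 in bulge WT and 9.05 to 9.61 in IFE WT, and its part in the Has3 difference was not tested. Ugdh was 2.05-fold higher in bulge WT than in IFE WT (log2 difference 1.04, SE 0.26, limma adjusted p = 0.00716). It read 8.11 to 8.45 in bulge WT, against 6.94 to 7.59 in IFE WT, without overlap.

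The other called differences were small on the chosen probe sets. For bulge WT minus IFE WT the further Cd44 probe sets, described below, gave -0.54, -0.85 and -1.1. On the chosen probe sets Cd44 was lower in bulge WT by 0.31 on the log2 scale (limma adjusted p = 0.0294), Hyal2 by 0.12 (limma adjusted p = 0.0326) and Has1 by 0.12 (limma adjusted p = 0.0461). All 3 calls rested on single arrays. The Cd44 call was lost without any one of the bulge WT arrays or without IFE WT replicate 3, at adjusted p values of 0.0566 to 0.117 and differences of -0.32 to -0.19. The Hyal2 call was lost without these arrays or IFE WT replicate 2 (adjusted p 0.0589 to 0.11), and the Has1 call without any one WT array (adjusted p 0.0506 to 0.121). Has2 had a difference of 0.15 (95% interval -0.29 to 0.60, limma adjusted p = 0.62) and Hyal1 of 0.15 (95% interval -0.08 to 0.38, limma adjusted p = 0.317). In total 5 of 7 genes were called, 1 higher and 4 lower in bulge WT, where 35.1% of all genes were called, 18.4% higher and 16.6% lower. Of all calls 52.6% were higher in bulge WT, against 42.5% after median centring of the arrays.

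In cells without G9a, Has3 and Ugdh kept these directions. Has3 was lower in bulge cKO than in IFE cKO by 0.61 on the log2 scale (95% interval -0.95 to -0.27, limma adjusted p = 0.0109), with both groups dim. Ugdh was higher in bulge cKO by 0.82 (95% interval 0.34 to 1.30, limma adjusted p = 0.0145), and all 4 bulge cKO arrays, replicates 2 and 3 at 7.44 and 7.72 included, lay above the IFE cKO arrays, of which replicate 4 was highest at 7.36. Without bulge cKO replicates 2 and 3 the Ugdh difference was 1.26. Cd44 had a difference of -0.22 (95% interval -0.41 to -0.03, limma adjusted p = 0.0763), Hyal1 0.07, Hyal2 -0.01, Has2 -0.01 and Has1 0.00. So 2 of 7 genes were called, 1 in each direction, where 32.1% of all genes were called, 17.6% higher and 14.6% lower. Of all calls 54.7% were higher in bulge cKO, against 39.6% with median centring.

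The 4 probe sets of Cd44 gave the same direction between compartments and unequal sizes. With every probe set tested by itself, bulge WT minus IFE WT was -0.31 on the chosen probe set (limma adjusted p = 0.0284) and -0.54, -0.85 and -1.1 on the others (limma adjusted p = 0.00403, 0.000676 and 0.00829). The last of these, the dimmest of the 4, read 9.16, 8.38, 8.56 and 7.99 in bulge cKO, against 7.49, 8.11 and 8.51 in bulge WT, so its arrays scattered more than those of the chosen probe set. On it the knockout difference in bulge was 0.49 (SE 0.26, limma adjusted p = 0.264), opposite in sign to the -0.13, -0.11 and -0.04 of the rest. The sources used here do not say which Cd44 transcripts each probe set reads.

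**Figure D3:**
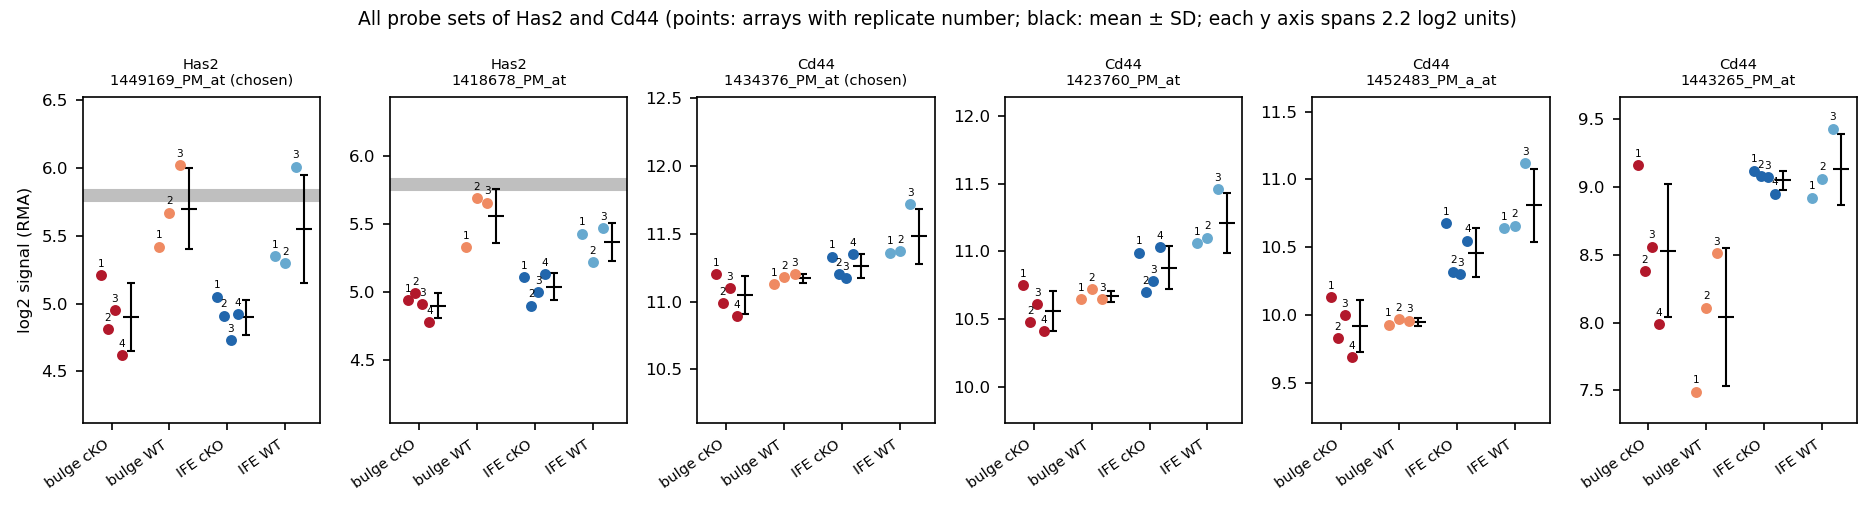
Log2 signal of both Has2 probe sets and all 4 Cd44 probe sets on every array, with replicate numbers and the mean ± SD. Both Has2 probe sets are lower on all cKO arrays than on the WT arrays of the same compartment, and the Cd44 probe sets differ in how far bulge lies below IFE.

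Promoter windows from RefSeq (GRCm38.p6, 250 bases before to 50 after the start of the gene) were matched for 5 of the 7 genes, Has1, Hyal1, Hyal2, Cd44 and Ugdh. The windows of Ugdh and Cd44 are shown because these genes differed in opposite directions between the compartments in WT cells, and those of Hyal1 and Hyal2 because the genes are neighbours whose signals were lower in cKO without passing the test. Capitals mark the dinucleotide CG, the site of DNA methylation. The Ugdh window is chr5:65435793-65436092 on the minus strand, that of Cd44 chr2:102901616-102901915 on the minus strand, that of Hyal1 chr9:107576700-107576999 on the plus strand and that of Hyal2 chr9:107568913-107569212 on the plus strand.
Ugdh: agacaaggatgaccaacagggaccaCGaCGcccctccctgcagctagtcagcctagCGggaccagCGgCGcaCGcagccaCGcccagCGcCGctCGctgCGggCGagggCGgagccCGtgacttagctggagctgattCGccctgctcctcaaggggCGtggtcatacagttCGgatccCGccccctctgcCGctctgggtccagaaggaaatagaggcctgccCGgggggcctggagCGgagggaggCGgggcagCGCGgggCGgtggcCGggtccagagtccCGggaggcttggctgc
Cd44: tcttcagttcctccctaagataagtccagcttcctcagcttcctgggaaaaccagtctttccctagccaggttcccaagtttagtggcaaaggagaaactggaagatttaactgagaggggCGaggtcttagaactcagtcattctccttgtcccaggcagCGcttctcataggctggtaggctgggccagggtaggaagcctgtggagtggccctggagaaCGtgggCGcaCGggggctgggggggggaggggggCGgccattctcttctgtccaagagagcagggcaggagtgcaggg
Hyal1: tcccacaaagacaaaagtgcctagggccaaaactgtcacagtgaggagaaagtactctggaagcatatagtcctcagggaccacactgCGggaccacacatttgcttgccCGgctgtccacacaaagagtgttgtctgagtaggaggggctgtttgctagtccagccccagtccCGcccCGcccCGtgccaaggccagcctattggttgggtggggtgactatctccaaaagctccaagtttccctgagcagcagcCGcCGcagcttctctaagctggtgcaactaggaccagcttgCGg
Hyal2: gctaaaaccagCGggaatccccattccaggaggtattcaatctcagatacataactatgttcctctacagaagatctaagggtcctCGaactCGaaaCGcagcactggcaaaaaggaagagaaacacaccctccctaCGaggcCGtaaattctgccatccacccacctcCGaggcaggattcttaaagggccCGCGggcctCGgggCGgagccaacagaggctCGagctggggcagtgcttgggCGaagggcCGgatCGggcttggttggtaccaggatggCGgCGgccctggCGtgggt

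The Ugdh window held 27 CG, the Hyal2 window 18, the Hyal1 window 8 and the Cd44 window 6, where the median of 32851 windows was 7. As many CG as in Ugdh were found in 15.5% of windows, as in Hyal2 in 29.7%, as in Hyal1 in 48.6% and as in Cd44 in 56.4%. The box GGGCGG, read on both strands and overlapping CG, was found 3 times in Ugdh, 2 times in Hyal1 and once each in Hyal2 and Cd44, and 35.7% of windows held it. TATAAA on either strand and TGANTCA were found in none of these windows, against 13.6% and 7.81% of all windows. These matches describe the letters of the windows and not sites in use.

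Other genes of the pathway were taken from 6 lists with 61 measured genes. The count includes Pigq, a gene of GPI anchor synthesis that stands in the sugar nucleotide supply list without belonging to it. Pigq was not called in any comparison. Of the 61 genes 2 were called in bulge cKO and 0 in IFE cKO. In bulge this was 3.28% of the list genes, near the 3.84% of all genes. For IFE only 0.497% of all genes were called, so a count of 0 among 61 says little. An unadjusted p under 0.05 was found for 23 of the 61 in bulge, where 25.7% of all genes had one, and for 7 of the 61 in IFE, near the 11% of all genes. Mmp14, a membrane protease that can shed Cd44, read 9.10, 8.75, 8.89 and 9.22 in bulge cKO, against 9.64, 9.52 and 9.35 in bulge WT. The groups did not overlap and it fell by 0.51 on the log2 scale (SE 0.11, limma adjusted p = 0.0259). This call was lost without bulge cKO replicate 2 or 3 or bulge WT replicate 1 or 2, with limma adjusted p up to 0.128 and differences of -0.59 to -0.43 over all single arrays left out. Tlr4, a receptor of the innate immune system reported to sense hyaluronan fragments, was higher in bulge cKO by 0.29 (SE 0.07, limma adjusted p = 0.044). It was dim, at 5.58 to 5.76 in bulge cKO and 5.33 to 5.43 in bulge WT, and the mean of 7 Langerhans cell markers was 6.46 to 7.22 in bulge cKO and 5.88 to 6.12 in bulge WT. The part of immune cells in that difference was not tested. The Tlr4 call was kept only without bulge cKO replicate 4 and lost without any other single bulge array, with limma adjusted p values up to 0.165 and differences of 0.26 to 0.32. It was also lost with cyclic loess (adjusted p = 0.0673) and with median centring (adjusted p = 0.0604).

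The -0.03 of Pigq in bulge was the median of the sugar nucleotide supply list. The 13 genes of that list, Pigq included, had 0 called against WT in either compartment (median -0.03 in bulge and 0.02 in IFE), as had 8 further degradation genes (0.01 and -0.01). The same held for the 16 genes listed as hyaluronan-binding matrix (0.06 and 0.00) and 8 other users of UDP-glucuronate (-0.21 and 0.04). Over all genes 3.84% were called in bulge and 0.497% in IFE, so 0 calls in lists this short say little. In bulge 5, 3, 4 and 5 genes of these 4 lists had an unadjusted p under 0.05 in limma, and in IFE 0, 0, 4 and 1, where 25.7% of all genes had one in bulge and 11% in IFE.

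**Figure D4:**
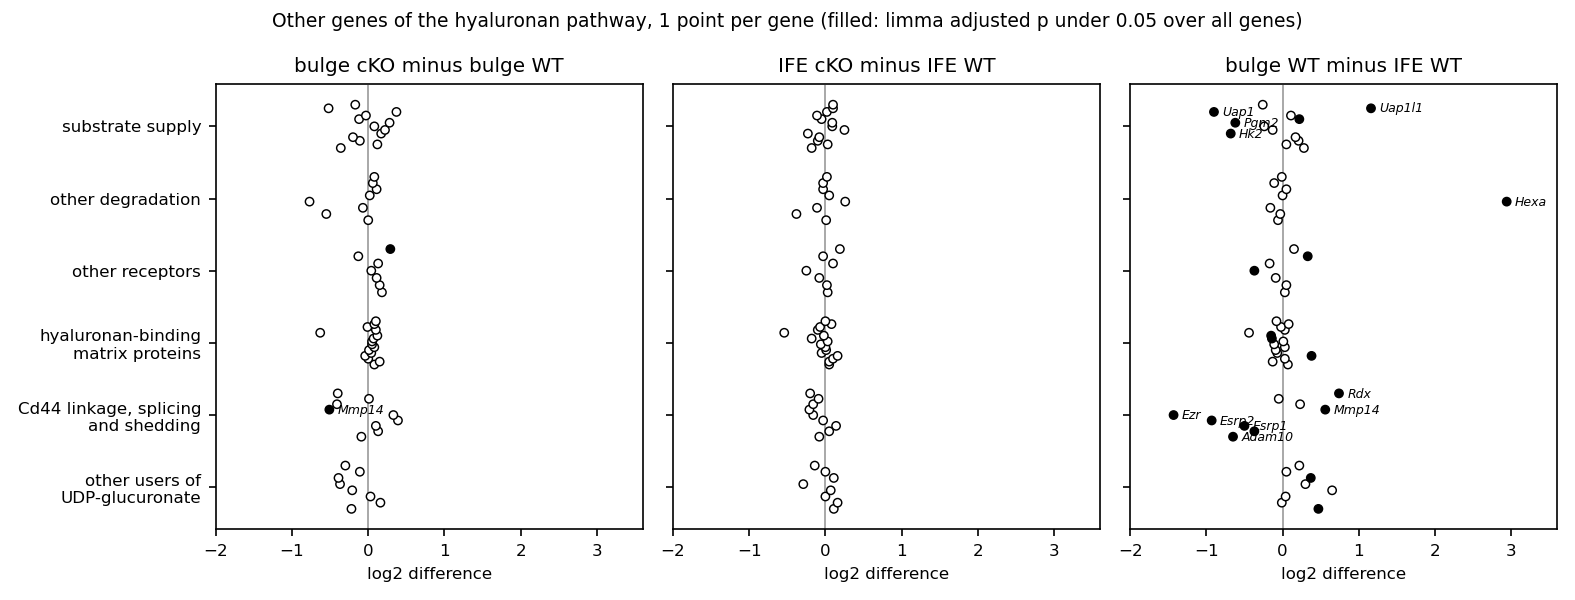
Log2 difference of each of the 61 genes of the pathway lists, Pigq included, for bulge cKO minus bulge WT, IFE cKO minus IFE WT and bulge WT minus IFE WT, with filled points at a limma adjusted p under 0.05. Against WT the filled points are Mmp14 and Tlr4 in bulge alone, and between compartments Hexa (2.94) and Ezr (-1.43) lie farthest out.

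Between the compartments in WT cells 20 of the 61 genes were called, 9 higher and 11 lower in bulge, which is 32.8% of the lists and near the 35.1% of all genes. Among genes that act on Cd44, 7 of 9 were called, 5 lower and 2 higher in bulge WT (median -0.37). Ezr encodes ezrin, which ties Cd44 to the actin cytoskeleton. It read 7.98, 7.91 and 7.91 in bulge WT, against 9.18, 9.32 and 9.59 in IFE WT, a difference of -1.43 (SE 0.13, limma adjusted p = 1.34e-05). The epithelial splicing factor genes Esrp2 (-0.93) and Esrp1 (-0.50), which set the variant exons of Cd44, and the protease gene Adam10 (-0.65), which can shed it, were also lower in bulge WT. The 2 higher genes were Rdx (0.74, limma adjusted p = 0.00325), which encodes the ezrin relative radixin, and Mmp14 (0.56, limma adjusted p = 0.0023).

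Of 8 further degradation genes 1 was called between the WT compartments, where 35.1% of all genes were called. This was Hexa, which encodes a subunit of the lysosomal enzyme that trims the sugar ends of hyaluronan fragments. It read 9.39, 9.28 and 8.92 in bulge WT, against 6.03, 6.50 and 6.24 in IFE WT, a difference of 2.94 (SE 0.31, limma adjusted p = 3.14e-05). In cKO cells it read 8.75, 7.75, 7.99 and 9.18 in bulge, against 6.32, 6.60, 6.82 and 6.30 in IFE (difference 1.91, limma adjusted p = 0.000438). As with Ugdh, bulge cKO replicates 2 and 3 were the lowest of the bulge arrays.

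In the sugar nucleotide supply list 5 of 13 genes were called between the WT compartments, 2 higher and 3 lower in bulge, where 35.1% of all genes were called. Uap1l1, a relative of the enzyme that completes UDP-N-acetylglucosamine, was higher in bulge WT by 1.16 (SE 0.17, limma adjusted p = 0.00029), and Uap1, that enzyme itself, was lower by 0.90 on the log2 scale (SE 0.22, limma adjusted p = 0.00721). The phosphoglucomutase gene Pgm2 (-0.62) and the hexokinase gene Hk2 (-0.68) were lower too. Of the other users of UDP-glucuronate, B3gat3 (0.47) and Ext2 (0.37), enzymes of proteoglycan and heparan sulfate synthesis, were higher in bulge WT. Among other receptors Tlr2 was higher (0.33) and Stab1, a scavenger receptor, lower (-0.37). Of the 16 genes listed as hyaluronan-binding matrix, Habp4, whose product is intracellular, was higher (0.38). Itih4 (-0.15) and Itih3 (-0.14), heavy chain genes of the inter-alpha-trypsin inhibitor family, were lower, both dim in every group mean. Of the calls between the WT compartments named in these paragraphs, those of Hk2, Ext2, Tlr2, Stab1, Habp4, Itih3 and Itih4 were each lost without at least 1 single array, with limma adjusted p up to 0.153, and the other 11 were kept. Bulge WT replicate 1 was 1 of the arrays in all 7 cases.

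Without G9a 15 of the 61 genes were called between bulge cKO and IFE cKO, 7 higher and 8 lower in bulge, or 24.6% against 32.1% of all genes. Ezr (-0.94), Esrp1 (-0.54), Esrp2 (-0.52), Adam10 (-0.66), Pgm2 (-0.42), Uap1l1 (0.55) and Rdx (0.54) were called with the same sign as in WT cells. The Esrp2 call was lost with cyclic loess (limma adjusted p = 0.0634). The glucose pathway genes Ugp2 (-0.53), whose enzyme makes the UDP-glucose that Ugdh oxidises, and Pgm1 (-0.26) were lower in bulge cKO. The Pgm1 call was lost in 5 of 8 fits that left out a single array (limma adjusted p up to 0.113).

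Genes with the pattern most like that of a member were sought for Has3 and Ugdh, whose group means spanned 1.93 and 1.1. Over the 14 arrays, which share compartment and genotype, Has3 correlated most with Mmp3 (Pearson r = 0.98), a secreted matrix protease, followed by Nol9 (0.96) and Urb2 (0.96). Mmp3 averaged 5.62 in bulge cKO, 5.54 in bulge WT, 6.62 in IFE cKO and 8.23 in IFE WT. Ugdh correlated most with the homeobox gene Irx5 (0.99), Tceal9 (0.98) and Golim4 (0.97). Irx5 averaged 8.94 in bulge cKO, 9.27 in bulge WT, 8.34 in IFE cKO and 8.38 in IFE WT. These correlations describe likeness of signals over the groups and carry no test.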

How the data were processed

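RNA was extracted with TRizol, amplified from 25 ng in 17 cycles and put on Affymetrix arrays, per the labels' protocols. The authors deposited log2 signals for each probe set, made with RMA per the submitters' processing notes. Of 45141 probe sets 28898 had 1 symbol, updated through Entrez identifiers to RefSeq GRCm38.p6, and 15692 with none and 551 with several were left out of gene tests.

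Group means over all 14 arrays were compared in limma 3.58.1 (R 4.3.3, lmFit and eBayes), two-sided, with Benjamini-Hochberg adjustment over 17097 genes and a threshold of 0.05. Arrays have no read depth, and their number limits the precision. The members and lists were chosen with earlier results of these data known. Named genes were the 7 members, Ehmt2, up to 4 called genes with the smallest adjusted p for each pathway list and comparison, the 3 genes most correlated with a member whose group means span 1 or more, and markers beside results. The 9 marker lists held bulge, basal, differentiation, sebaceous, Langerhans, T cell, fibroblast, endothelial and melanocyte markers. The model was tested on simulated data. The alternative without cKO replicates 2 and 3 in bulge and IFE at once was chosen after seeing the data. The labels do not say whether same-numbered samples share an animal, and the samples were not treated as paired. Of 13 same-numbered pairs 5 had a correlation of deviations over 0.1, but these include cKO with WT pairs, which cannot share an animal. The bulge with IFE pairs of 1 genotype could. Their correlations were -0.05, 0.11, -0.58 and 0.21 in cKO replicates 1 to 4 and 0.24, -0.0 and 0.14 in WT replicates 1 to 3. Figures were drawn with matplotlib 3.10.9.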

Additional observations from a re-analysis of the deposited data

How the results depend on the processing

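Of 9 called results of the 7 genes, direction and call were kept in 141 of 183 alternatives, and none reversed. Some of these outcomes were fixed in advance. The threshold of 0.1 could not lose a call, and neither it nor the fold minimum could change a sign. The counts also include the array weights, which are not relied on. Has3 between the compartments and Ugdh between the compartments kept their calls wherever they were tested, in both genotypes. Has3 in IFE was lost in the fit of only the groups compared (-1.28, adjusted p = 0.0674) and without cKO replicates 2 and 3. Has2 in bulge lost its call in 9 of 21 alternatives, among them the fit of only the groups compared (adjusted p = 0.113). It was not tested under the filter on dim probe sets, which removed it. Of 26 uncalled results, 20 of 603 alternatives made a call and 36 changed sign without one.

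The number of the 7 genes called in bulge cKO against WT was 1, and 0 with the dim filter, with only the groups compared, with the replicate block by number, and without cKO replicates 2 and 3 of bulge or of both compartments. It was 2 at an adjusted p under 0.1 and 4 with array weights. In IFE cKO against WT it was 1, and 0 with only the groups compared and without cKO replicates 2 and 3 of both compartments, 2 at the looser threshold and 3 with array weights. For the difference of effects it was 0, and 1 at the looser threshold and 2 with array weights. Between WT compartments it was 5, and 2 with cyclic loess, only the groups compared, a 1.5-fold minimum or the replicate block by number, and 3 with the dim filter or with an intensity trend and robust fitting. Between cKO compartments it was 2 or 3. Leaving out single arrays gave 0 to 2, 1 to 1, 0 to 1, 2 to 4 and 2 to 3. The array weights did not converge and gave bulge cKO replicate 3 a weight of 15.5, so their counts are not relied on.

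Calls over all genes moved by more than 1.5 times. In bulge they were 656, and 72 with only the groups compared, 224 with a fold minimum, 2015 at the looser threshold, 412 with the replicate block, 116 and 80 without cKO replicates 2 and 3 of bulge and of both compartments, and 8242 with array weights. In IFE they were 85, and 48, 53, 176, 33, 41 (both compartments) and 1458 in the same order. For the difference they were 18, and 6 with the dim filter, 28 by probe set, 11, 49, 2, 3, 3 and 4974. Between compartments they were 5998 in WT, with 2848 under the fold minimum, and 5496 in cKO, with 1670 under it and 10318 with array weights. Leaving out single arrays gave 116 to 2553 calls in bulge (highest without bulge cKO replicate 4, lowest without bulge WT replicate 1), 38 to 107 in IFE (lowest without IFE WT replicate 1) and 3 to 240 for the difference (highest without bulge cKO replicate 4), so the shares of all genes called moved as well. The replicate numbers were not treated as pairs: in 7 of 26 comparisons of an array with a partner group it correlated best with its own number. These comparisons include partner groups of the other genotype, which cannot share an animal. Between the WT compartments replicates 1 and 3 correlated best with their own number in both directions, and replicate 2 in neither. Between the cKO compartments only IFE cKO replicates 2 and 4 did. With the replicate block by number Has2 in bulge had -0.76 (adjusted p = 0.0679), and with genotype and number as a random block no call of the 7 genes was lost. For named pathway genes 612 of 725 alternatives kept direction and call, 113 lost the call and 0 reversed. These counts too include the looser threshold, the fold minimum and the array weights. How far background affects the dim signals of Has2 and Has3 was not tested.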
